A study of Mus musculus with 6 samples.

Results

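Cytosolic and mitochondrial chaperones were followed as 34 genes chosen by name, out of 24421 genes counted. They were 5 HSP70 genes, 3 HSP110 genes, 2 HSP90 genes, 5 DnaJ genes, 3 small HSP genes, the HSP60 and HSP10 pair, 6 co-chaperones and 8 subunits of the CCT chaperonin. The libraries came from 1 year old mice, 3 labelled STIM1 knockout (KO) and 3 labelled wild type (WT). In both genotypes the Purkinje neuron layer was microdissected from the cerebellum together with the molecular layer. The labels name neither the driver of the knockout nor the cells in which Stim1 is lost, and they give no other allele or treatment. STIM1 is the calcium sensor of the endoplasmic reticulum that opens Orai channels when the store empties.

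Chaperones bind unfolded proteins and let them fold or be handed on for degradation. HSP70 proteins work in ATP-driven cycles that DnaJ partners start and nucleotide exchange factors, such as the HSP110 proteins, end. HSP90 completes the folding of kinases and steroid receptors with its co-chaperones, and the CCT ring folds actin and tubulin. In the mitochondrion an HSP70 pulls proteins through the inner membrane and the HSP60 and HSP10 chamber folds them. Heat shock factor 1 raises many of these genes after stress through the heat shock element, a run of alternating GAA and TTC units.

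The libraries were shallow over genes, with 659213 to 764839 gene counts in KO and 645994 to 705168 in WT. Those counts were 1.16% to 1.22% of the uniquely aligned reads in KO and 1.18% to 1.23% in WT. Stim1 had 4, 3 and 2 counts in KO replicates 1 to 3 and 7, 21 and 3 in WT replicates 1 to 3, a weak check of the genotype labels. Y-linked genes had 14 counts in KO replicate 3, 28 in WT replicate 3 and 0 in the other libraries. By these counts 1 library of each genotype came from a male and the others from females. Tsix, the antisense partner of Xist, had 3265, 3019 and 1 counts in KO and 3053, 2987 and 2 in WT, while Xist had 100, 108 and 4 in KO and 139, 79 and 10 in WT. The strand setting of the counting is not given in the sources used here, and whether the counts of a chaperone gene are of its own mRNA was not tested. Markers of Purkinje cells were read in every library, with a summed level of 1969 to 2640 CPM in KO and 2625 to 3265 CPM in WT over 10 genes. In bulk tissue, fewer cells of a type and less RNA per cell cannot be told apart.

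Upstream sequences of 4 stress-inducible members are shown because they hold the heat shock element letters. Capitals mark matches to GAANNTTC or TTCNNGAA, each of which reads the same on both strands, and neighbouring matches can overlap. The 130 bases before each RefSeq start site are given 5′ to 3′ on the gene's strand, from GRCm38.p6. Hspe1 lies at chr1:55088018-55088147 (plus strand), Hspa1a at chr17:34972157-34972286 (minus), Hspa1b at chr17:34959239-34959368 (minus) and Hspb1 at chr5:135887789-135887918 (plus).
Hspe1: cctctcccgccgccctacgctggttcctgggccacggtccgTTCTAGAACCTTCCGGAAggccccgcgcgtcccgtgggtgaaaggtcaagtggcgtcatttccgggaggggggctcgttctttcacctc
Hspa1a: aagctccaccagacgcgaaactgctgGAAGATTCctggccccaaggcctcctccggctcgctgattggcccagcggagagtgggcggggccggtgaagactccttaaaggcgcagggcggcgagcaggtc
Hspa1b: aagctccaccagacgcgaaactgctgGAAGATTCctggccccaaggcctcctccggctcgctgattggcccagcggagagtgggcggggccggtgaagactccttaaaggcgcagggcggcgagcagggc
Hspb1: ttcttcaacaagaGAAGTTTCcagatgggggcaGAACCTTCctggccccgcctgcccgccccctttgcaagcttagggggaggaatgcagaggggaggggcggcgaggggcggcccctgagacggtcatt

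The stretch before Hspe1 also lies before a start of Hspd1, which runs the other way, with 215 bases between the starts of the pair. Its capitals form 1 unbroken run of 18 bases. The stretches before Hspa1a and Hspa1b were identical at 129 of 130 positions. RefSeq windows of 250 bases before to 50 after a start were found for 28 of the 34 members. Of those 28, 16 (57.1%) had a match to either form in at least 1 window, against 17% of all 27025 genes with a window. Either form continued by 1 more alternating unit after 2 free bases, read on both strands, was found for 4 members (14.3%), Chordc1, Hspd1, Hspe1 and Hsph1, against 0.662% of all genes. A match describes letters alone, and no binding was measured.

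Levels spanned from 1 count in all libraries together for Hspb8 to 1422 CPM for Dnaja1 in KO, where CPM are counts per 1e6 of the library's scaled gene counts. Per kilobase of exon, Hsp90ab1, the constitutive HSP90, was highest, at 278 ± 49.8 CPM per kilobase in KO and 290 ± 20.1 in WT (SD, n = 3 each). Dnaja1, a cytosolic DnaJ partner of HSP70, followed at 165 ± 1.82 in KO and 158 ± 7.77 in WT, and Hsp90aa1, the inducible HSP90, at 134 ± 26.1 in KO and 121 ± 11.5 in WT. The libraries of Dnaja1 and Hsp90aa1 overlapped in KO, through replicate 2 of Hsp90aa1, and did not in WT. Cct8 stood at 41.9 ± 12.8 in KO and 41.9 ± 3.71 in WT, Hspa8 at 26.4 ± 4.74 in KO and 33.7 ± 3.52 in WT, and Hspa9 at 18.3 ± 3.58 in KO and 24.8 ± 2.58 in WT. Hspa8 and Hspa9 overlapped in KO and not in WT. Each of the other members averaged under 20 CPM per kilobase over all libraries. These levels are of counts whose strand setting is not given, so their order may differ from that of the mRNAs. All 34 members together held 0.336% to 0.383% of gene counts in KO and 0.373% to 0.386% in WT.

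**Figure D1:**
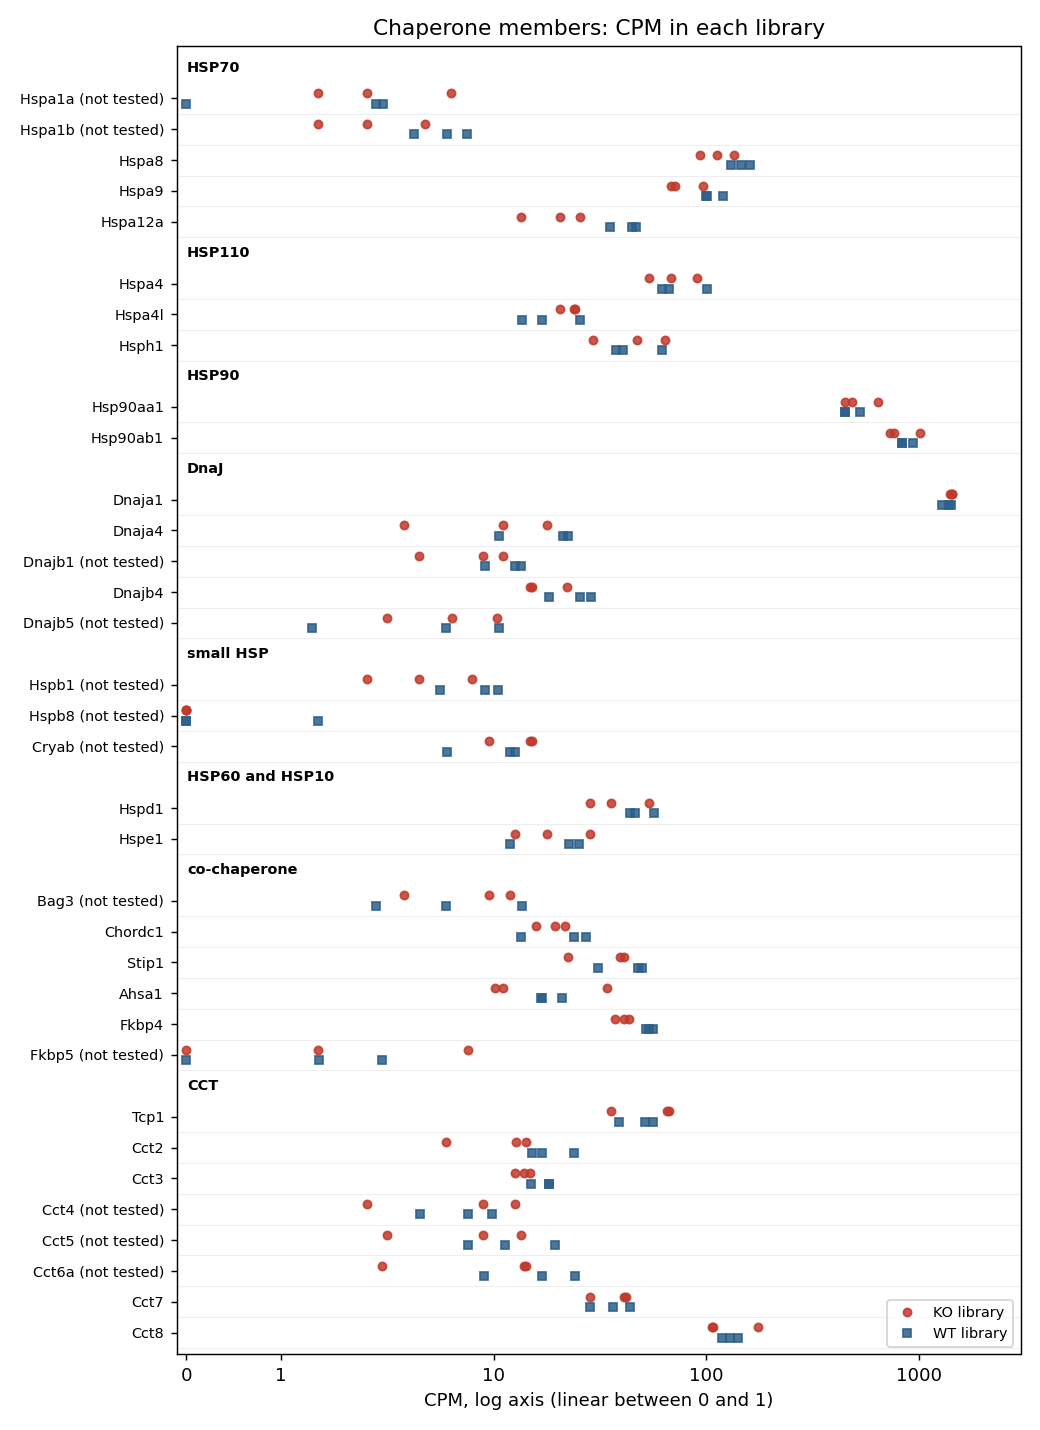
CPM of each of the 34 chaperone genes (log axis, linear between 0 and 1) in 3 KO libraries (circles) and 3 WT libraries (squares), by family. The libraries of the genotypes interleave for most genes, while Hspa9, Hspa12a, Fkbp4, Cct2 and Cct3 have every KO point left of every WT point.

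None of the chaperone genes differed between KO and WT beyond the threshold. In edgeR's quasi-likelihood test, 0 of the 22 members with enough counts to be tested and 0 of 5320 tested genes (0%) had a Benjamini-Hochberg adjusted p under 0.05. DESeq2 and limma-voom called 0 genes as well, with 96 and 234 genes at an unadjusted p under 0.05 against 246 (4.62%) in edgeR. The p-values measure the spread between these 6 libraries. At an unadjusted p under 0.05, 2 members were lower in KO and 0 higher, against 3.05% of all tested genes lower and 1.58% higher. That count ranged from 0 to 3 over the alternatives. Hspa12a was below this p in all 15 alternatives that tested it, and Hspa9 in 7 of 16. The KO libraries were all under the WT libraries for 5 members, Hspa9, Hspa12a, Fkbp4, Cct2 and Cct3, against 6.13% of all tested genes. For Cct2 and Cct3 this came with the filter, which they passed through their WT libraries alone. For 0 members did every KO library lie above, against 4.61%. Of the 22 members, 15 had a log2 fold change (KO over WT) below 0 and 7 above, where 49.8% of all tested genes were below 0. Their median was -0.14, beside 0.0017 for all tested genes. Over all 34 members with no filter on counts, 20 were below 0 and 14 above, with a median of -0.12. The filter keeps a gene through whichever genotype is higher, so these counts describe the members read and are no test of the list.

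**Figure D2:**
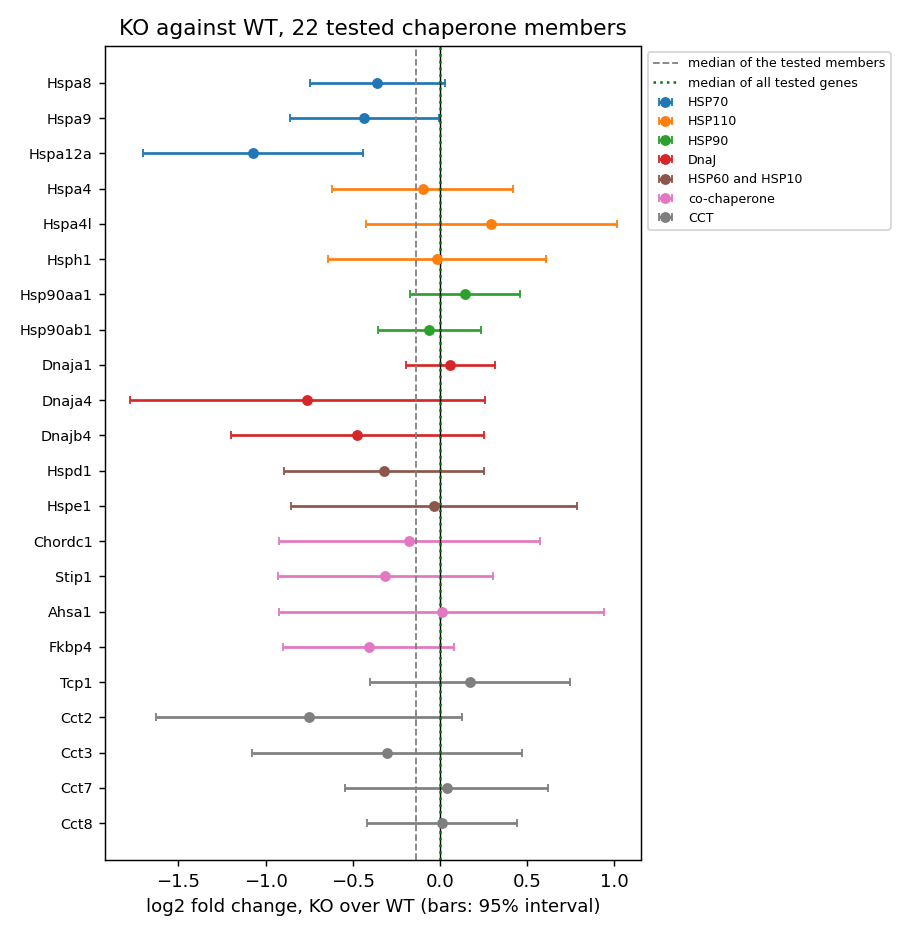
Log2 fold change of KO over WT with its 95% interval for the 22 tested chaperone genes, coloured by family, with dashed and dotted lines at the median of these genes (-0.14) and of all tested genes (0.0017). The intervals of Hspa9 and Hspa12a lie below 0, that of Hspa9 barely (upper end -0.0045), and those of the other 20 genes include it.

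All 3 tested HSP70 genes had a log2 fold change below 0, though none passed. Hspa12a, a distant HSP70 relative found in brain, had 20, 9 and 13 counts in KO replicates 1 to 3 and 30, 31 and 25 in WT replicates 1 to 3. The highest KO library, at 25.4 CPM, was under the lowest WT library, at 35.2 CPM. Its mean was 19.8 ± 6.04 CPM in KO and 42.3 ± 6.26 CPM in WT (SD, n = 3 each). Its log2 fold change was -1.07 (SE 0.30, 95% interval -1.70 to -0.44, edgeR adjusted p 0.916). Hspa12a is on chromosome 19 (58795750 to 58943654, minus strand, GRCm38) and shares 166 exon bases with Eno4 on the other strand. Eno4 had 23, 62 and 42 counts in KO and 39, 32 and 40 in WT. Both deposited tables of the authors gave Hspa12a, alone among the 34 members, an unadjusted p under 0.05. They were made from these same libraries, and the share of all their genes under this p was not computed. The p was 0.00215 in the authors' deposited table from DESeq, with a fold of 0.477 (KO over WT). In the authors' deposited table from edgeR the p was 0.000683, with a log2 ratio of 1.05 (WT over KO, so lower in KO).

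Hspa9, or mortalin, is the HSP70 of the mitochondrial matrix that drives protein import. It had 76, 46 and 45 counts in KO and 80, 67 and 71 in WT. KO libraries reached 96.5 CPM at most, close under the lowest WT library, replicate 3. The log2 fold change was -0.43 (SE 0.20, 95% interval -0.86 to -0.0045, edgeR adjusted p 0.987). Hspa8, the constitutive HSP70 that also strips clathrin from vesicles, had 88, 63 and 85 counts in KO and 107, 86 and 103 in WT. The genotypes overlapped, since KO replicate 3 reached 135 CPM and WT replicate 2 had 130 CPM. Of its 50-base windows 37% occur at other loci, nearly all pseudogenes. Its log2 fold change was -0.36 (SE 0.18, 95% interval -0.75 to 0.030, edgeR adjusted p 0.987).

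The heat-inducible pair was barely read. Hspa1a had 2, 1 and 4 counts in KO and 0, 2 and 2 in WT, and Hspa1b had 2, 1 and 3 counts in KO and 5, 4 and 3 in WT. Since even a library with no read of a gene may hide as many as 3, the floor was 3.81 to 4.75 CPM in KO and 4.23 to 4.54 CPM in WT, for counting error alone. Both genes were therefore near the limit of detection in both genotypes. Of the 50-base windows of Hspa1a transcripts 60.3% occur exactly in a transcript of another locus, nearly all of them in Hspa1b, and 62.3% of those of Hspa1b occur in Hspa1a. Reads from such windows align to more than 1 place, and the counts of these genes are uncertain.

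Summed over its 5 genes, the HSP70 family had 239, 179 and 237 CPM in KO and 333, 287 and 287 CPM in WT. The KO libraries were all lower than the WT libraries, with a mean of 218 ± 34.3 CPM in KO and 302 ± 26.2 CPM in WT (SD, n = 3 each). Hspa8 and Hspa9 made up most of these sums. Markers of Bergmann glia and astrocytes were also lower in sum in KO, and 9 of 11 tested markers were below 0. Over these 11 genes they summed to 1274, 953 and 1282 CPM in KO replicates 1 to 3 and 1599, 1635 and 1352 CPM in WT replicates 1 to 3. KO replicate 2 was thus lowest in both sums, while WT replicates 2 and 3 had like HSP70 sums and unlike marker sums. Of the Purkinje cell markers 7 of 9 tested were below 0. All 6 tested markers of molecular layer interneurons were below 0, with a median of -0.089 and summed levels that overlapped, 339 to 395 CPM in KO and 377 to 403 CPM in WT. No listed marker of these 3 kinds was at 0 in all libraries, and none was called. Of the granule cell markers 4 of 8 tested were below 0, with a median of 0.00018, and of the oligodendrocyte markers 3 of 4. The part of these cell types in the HSP70 values was not tested.

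**Figure D3:**
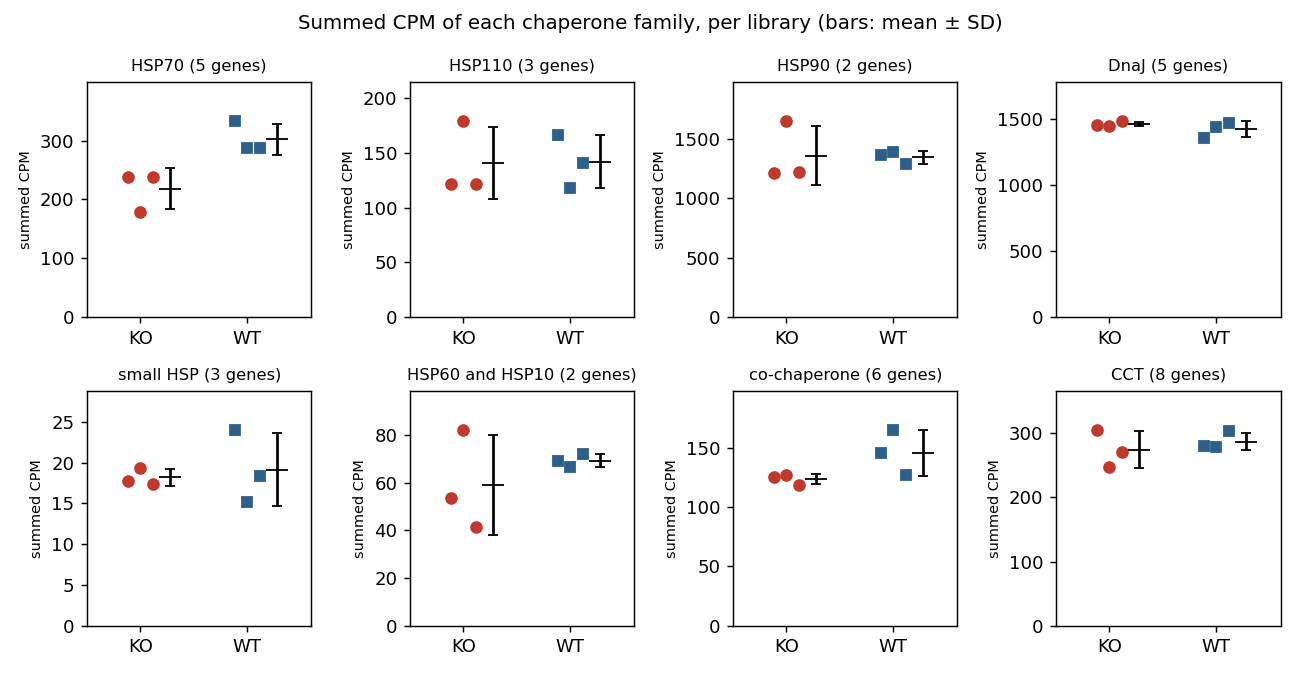
Summed CPM of each chaperone family in 3 KO libraries (circles) and 3 WT libraries (squares), with mean ± SD bars and axes from 0. The HSP70 sums of KO (179 to 239) lie below those of WT (287 to 333), the co-chaperone sums of KO (119 to 126.6) lie just below those of WT (126.8 to 165), and KO replicate 2, the middle circle, is highest of the 6 libraries for HSP110, HSP90 and the HSP60 and HSP10 pair.

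The nucleotide exchange factors of the HSP110 family had log2 fold changes whose intervals were wide and included 0. Hspa4 had 54, 61 and 34 counts in KO and 67, 44 and 44 in WT, with a log2 fold change of -0.098 (95% interval -0.62 to 0.42). Hspa4l had 19, 16 and 13 counts in KO and 17, 9 and 12 in WT, with a log2 fold change of 0.30 (-0.43 to 1.02) that lay at 0.12 without WT replicate 2 and 0.57 without WT replicate 1. Hsph1 had 23, 43 and 30 counts in KO and 27, 25 and 44 in WT, so that 1 library of each genotype was high. Its log2 fold change was -0.016 (-0.64 to 0.61). The genotypes overlapped for all 3 genes.

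HSP90 had the most precise values after Dnaja1. Hsp90aa1 had 354, 431 and 306 counts in KO and 352, 296 and 320 in WT, a log2 fold change of 0.14 (95% interval -0.17 to 0.46). Hsp90ab1 had 601, 675 and 463 counts in KO and 557, 621 and 593 in WT, a log2 fold change of -0.060 (-0.36 to 0.24). KO replicate 2 was the highest library for both, at 642 CPM of Hsp90aa1 and 1006 CPM of Hsp90ab1. The spread between replicates exceeded counting noise in these genes. The within-genotype chi-square over its degrees of freedom was 8.49 for Hsp90aa1 and 10.4 for Hsp90ab1, with a median of 1.52 over all tested genes. At an equal relative spread this ratio grows with the count. The mean count per library had a median of 464 over the HSP90 genes and 27 over all tested genes. The ratios therefore do not show that HSP90 varied more than other genes. There were 0.589, 0.639 and 0.661 Hsp90aa1 counts per Hsp90ab1 count in KO and 0.632, 0.477 and 0.540 in WT, and these ranges overlapped. Of the 50-base windows of Hsp90aa1, 47.5% occur in transcripts of other loci, most of them in the processed pseudogene Gm12346, against 3.44% of those of Hsp90ab1.

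Among the DnaJ partners Dnaja1 was read most deeply of all 34 members. It had 1121, 943 and 907 counts in KO and 860, 915 and 1007 in WT, or 1422 ± 15.7 CPM in KO and 1364 ± 67.0 CPM in WT (SD, n = 3 each). Its log2 fold change of 0.060 had the narrowest interval of the set (-0.19 to 0.31). Dnaja1 shares 608 exon bases with Smu1 and 249 with Gm6297 on the other strand, which had 81 to 91 and 111 to 146 counts per library. Dnaja4 had 3, 12 and 7 counts in KO and 15, 7 and 15 in WT, a log2 fold change of -0.76 (-1.78 to 0.26). Leaving out KO replicate 2 made it -1.33 and leaving out KO replicate 1 made it -0.32. Of its exon bases, 1581 are shared with Wdr61, which had 6, 9 and 3 counts in KO and 4, 8 and 13 in WT. Dnajb4 had 12, 10 and 14 counts in KO and 17, 19 and 13 in WT, a log2 fold change of -0.47 (-1.20 to 0.25). Dnajb1, which helps HSP70 to break up aggregates, had 7, 3 and 7 counts in KO and 9, 6 and 9 in WT, too few to be tested. Dnajb5 was not tested either, with 5, 7 and 2 counts in KO and 4, 7 and 1 in WT.

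The small heat shock proteins hold unfolded proteins without ATP, and none had enough counts to be tested. Hspb1 had 2, 3 and 5 counts in KO and 7, 6 and 4 in WT, with 50.1% of its windows found at other loci. Cryab, also abundant in oligodendrocytes, had 12, 10 and 6 counts in KO and 8, 4 and 9 in WT. It shares 252 exon bases with Hspb2 on the other strand. Hspb8, which acts with Bag3 in selective autophagy, had 0 counts in KO and 1, 0 and 0 in WT.

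The mitochondrial folding chamber overlapped between the genotypes. Hspd1, its HSP60 barrel, had 28, 36 and 18 counts in KO and 38, 29 and 33 in WT, a log2 fold change of -0.32 (95% interval -0.89 to 0.25). It was -0.61 without KO replicate 2 and -0.15 without KO replicate 3. Hspe1, the HSP10 lid, had 14, 19 and 8 counts in KO and 8, 15 and 18 in WT, a log2 fold change of -0.034 (-0.85 to 0.78). In the GENCODE models, where Hspd1 has a start further out than the RefSeq start used above, the pair shares 112 exon bases in opposite directions. Hspd1 counts per Hspe1 count averaged 2.05 ± 0.18 in KO and 2.84 ± 1.66 in WT (SD, n = 3 each), where replicate 1 stood at 4.75 on 8 Hspe1 counts. Of the Hspd1 windows 39.7% occur at other loci, most in the processed pseudogene Hspd1-ps3.

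The 6 co-chaperones summed to 126, 127 and 119 CPM in KO and 145, 165 and 127 CPM in WT. The KO sums were all lower, though the highest, 126.6, was only just under the lowest WT sum, 126.8. Of the tested co-chaperones 3 were below 0 and 1 above. Fkbp4, an immunophilin of steroid receptor complexes, had 34, 25 and 26 counts in KO and 36, 37 and 37 in WT. Its mean was 40.5 ± 3.02 CPM in KO and 54.0 ± 1.92 CPM in WT (SD, n = 3 each), and the genotypes did not overlap. The log2 fold change was -0.41 (SE 0.23, 95% interval -0.90 to 0.082, edgeR adjusted p 0.987). For Fkbp4 the same chi-square ratio was 0.103, below what counting alone gives on average. Stip1, the adaptor that joins HSP70 to HSP90, had 31, 15 and 26 counts in KO and 32, 33 and 22 in WT, a log2 fold change of -0.31 (-0.93 to 0.30). The value was -0.096 without KO replicate 2 and -0.51 without WT replicate 3. Ahsa1, the activator of the HSP90 ATPase, had 8, 23 and 7 counts in KO and 14, 11 and 12 in WT, so its log2 fold change of 0.010 rested on KO replicate 2 and was -0.78 without it. Chordc1, an HSP90 partner, lay at -0.18 (-0.92 to 0.57). Bag3 had 2 to 9 counts per library and Fkbp5, a glucocorticoid-induced immunophilin, 0 to 6, and neither was tested.

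Of the 8 CCT subunits 5 were tested, 2 below 0 and 3 above. Cct8 was read most, with 138, 72 and 67 counts in KO and 94, 78 and 92 in WT. KO replicate 1 was far above the others at 175 CPM, the log2 fold change was 0.011 (95% interval -0.42 to 0.44), and without that library it was -0.28. Cct2 had 10, 4 and 9 counts in KO and 16, 10 and 12 in WT, without overlap in CPM, a log2 fold change of -0.75 (-1.63 to 0.12, edgeR adjusted p 0.987) that was -0.48 without KO replicate 2. Cct3 did not overlap either, on 11, 10 and 8 counts in KO and 10, 12 and 13 in WT, at -0.30 (-1.08 to 0.47). Cct2 and Cct3 had enough counts to be tested through their WT libraries alone. Their lack of overlap therefore came with the filter and says nothing about genotype. Cct7 lay at 0.039 (-0.54 to 0.62) and Tcp1 at 0.17 (-0.40 to 0.74), or 0.023 without KO replicate 3 and 0.43 without KO replicate 1. Cct4, Cct5 and Cct6a had 2 to 16 counts per library and were not tested. The subunits assemble into rings in equal numbers. Per kilobase of exon Cct8 averaged 41.9 CPM, Tcp1 10.4 and Cct4 1.83 over all libraries.

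Several members share exon with genes on the other strand. Tcp1 shares 571 exon bases with Acat3, which had 1235, 1238 and 1312 counts in KO and 1025, 1174 and 1264 in WT, while Tcp1 had 28, 44 and 42 in KO and 26, 34 and 40 in WT. Cct8 shares 192 bases with Usp16, which had 352, 318 and 297 counts in KO and 322, 304 and 311 in WT. In all, 11 of 34 members have at least 50 exon bases in common with an opposite-strand gene. The 8 tested members with such exon had a median log2 fold change of -0.011, with 4 below 0 and 4 above, and 14 without had -0.24, with 11 below and 3 above. Refitted among genes without such exon, those 14 had a median of -0.17, with 9 below and 5 above. Over all tested genes the medians were 0.043 for 2356 genes with such exon and -0.057 for 2774 without, and 57.9% of those 2774 were below 0.

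**Figure D4:**
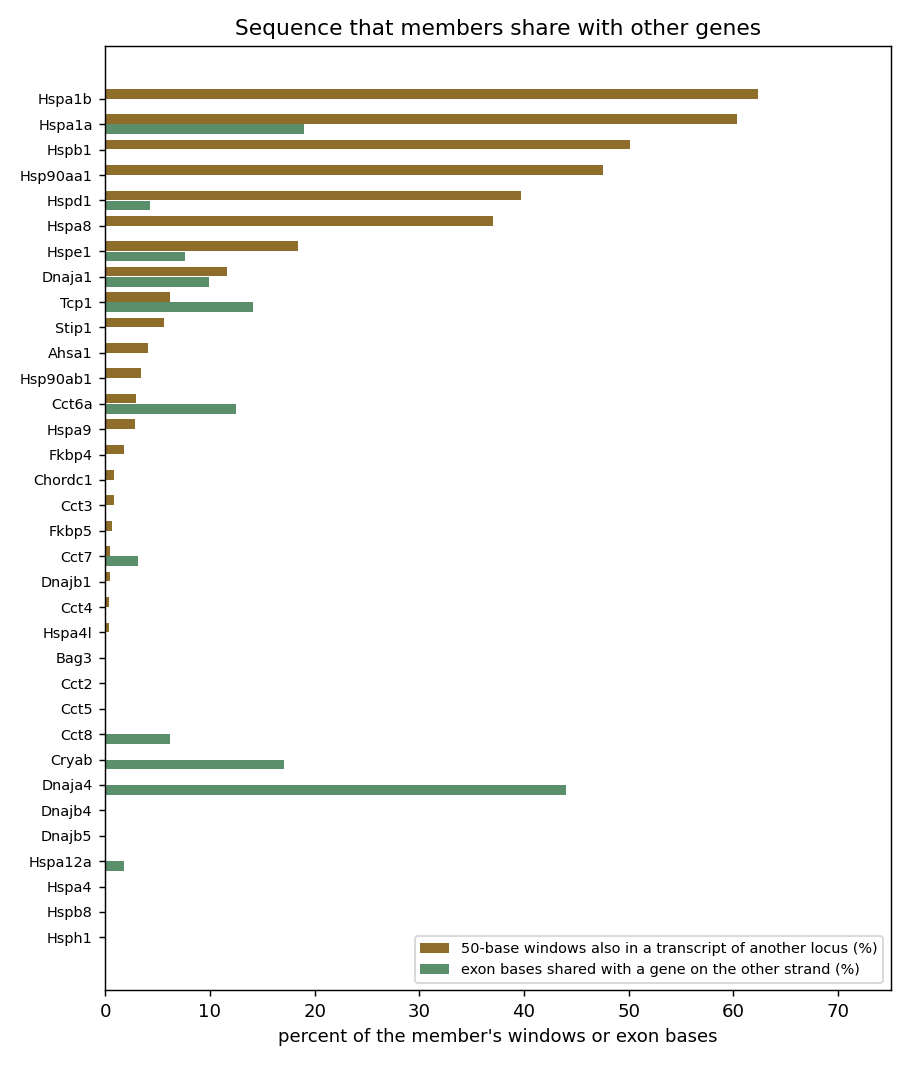
Percent of each member's 50-base transcript windows that occur in a transcript of another locus (upper bar of each pair) and percent of its exon bases shared with a gene on the other strand (lower bar). Hspa1b (62.3%) and Hspa1a (60.3%) share most windows, and Dnaja4 shares most exon.

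Across libraries the members did not move as 1 block. With each gene's log2 CPM (pseudocount 1) centred on its mean, the median over the 22 tested members was -0.12, -0.0053 and -0.18 in KO replicates 1 to 3 and 0.25, 0.028 and 0.14 in WT replicates 1 to 3. The same median over all tested genes was 0.00024 to 0.021 in KO and 0.021 to 0.027 in WT. KO replicate 2 was the highest of the 6 libraries for 5 members, Hsph1, Hsp90aa1, Hsp90ab1, Hspe1 and Ahsa1. It was the lowest for 8, among them Hspa8, Hspa9, Hspa12a and Stip1. The shares of all tested genes with this library highest or lowest were not computed. Without KO replicate 2 the median log2 fold change over 23 tested members was -0.31, with 18 below 0 and 5 above, and without KO replicate 1 it was -0.28. Without both replicates numbered 3, which leaves the libraries with no Y-linked counts, it was -0.045, with 12 below and 10 above.

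Tested members with heat shock element letters in a promoter window had 8 of 9 log2 fold changes below 0 and a median of -0.32. Those with a window but no match had 4 of 9 below 0 and a median of 0.010. Of the 4 tested members without a window 3 were below 0, with a median of -0.21. Over all tested genes 49.8% were below 0, and the share among genes with the letters was not computed. Among members with the letters Hsph1, Hspe1 and Chordc1 turned sign in an alternative, and Hspd1 and Hspe1 share an upstream stretch. Among those with no match Hspa4, Ahsa1, Cct7 and Cct8 turned. Cct2, among the 8, and Cct3, among the 4, were tested through their WT libraries alone, so their signs came with the filter. These groups are small, members were chosen with results known, and no test was made of the differences.

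Other genes of the chaperone network gave 0 calls. Of 15 tested among 34 other DnaJ genes 10 were below 0, with a median of -0.084. Dnajb6, which keeps polyglutamine proteins from aggregating, had 24, 13 and 14 counts in KO and 26, 34 and 24 in WT, a log2 fold change of -0.76 (SE 0.29, edgeR adjusted p 0.987). Of 18 tested among 31 other co-chaperones of HSP70 and HSP90, 7 were below 0 and 11 above, with a median of 0.0048. Cdc37l1, a relative of the kinase co-chaperone Cdc37, had 847, 757 and 925 counts in KO and 658, 688 and 732 in WT, a log2 fold change of 0.26 (95% interval -0.027 to 0.55). Every Cdc37l1 count of KO was above those of WT, and 430 of its exon bases lie opposite another gene. Of 8 tested ER chaperones 4 were below 0 and 4 above, with Hspa5, the HSP70 of the endoplasmic reticulum, at -0.22 (SE 0.22). Of 7 tested genes in the mitochondrial folding list, 3 are the members Hspa9, Hspd1 and Hspe1, and Hspa9 had its lowest p. Of the other 4, Dnlz had the lowest p and lay at 0.25 (SE 0.15). Lonp1, a matrix protease, lay at -0.58 (SE 0.40), Grpel1 at 0.19 and Pam16 at 0.15, and none passed. Of the 3 tested prefoldin and tubulin cofactor genes Pfdn2 lay at -0.23 (SE 0.38). Hsbp1, a binding partner of heat shock factor 1, was the only tested gene of its list at 0.47 (SE 0.45), and 0 of 6 other small HSP genes could be tested.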

How the data were processed

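RNA from 3 KO and 3 WT libraries was used. The tools listed per the submitters' processing notes are HTSeq 0.9.1, TopHat, edgeR and DESeq, with the builds GRCm38 and mm10. The sources used here give neither strand setting nor annotation. The authors deposited whole-number counts per gene symbol, with 5 HTSeq rows that name no gene (genes held 1.16% to 1.23% of uniquely aligned reads), which were left out. The authors' deposited DESeq table gives normalised mean signal, a fold ratio of KO over WT with its p-value, while their edgeR table holds a log2 ratio (WT over KO), log2 CPM and a p-value.

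All 24421 genes entered edgeR 4.0.16 in R 4.3.3 (TMM, filterByExpr with a minimum count of 10, quasi-likelihood test, Benjamini-Hochberg adjusted p under 0.05 over 5320 genes), with no covariate. Standard errors and 95% intervals come from the F statistic. CPM uses TMM-scaled library sizes. The series text calls the replicates biological. Gene models are GENCODE M21, which matched 95.8% of symbols, and exon overlaps count from 50 bases. Windows of 50 bases were matched to GENCODE transcripts on both strands, leaving out genes overlapping the member. Promoters are RefSeq's.

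Members and lists were chosen with earlier results of these data known. Per-library counts are given for the member of highest CPM and lowest p in each family, those with unadjusted p under 0.05 and those sharing sequence; Hsph1, Dnajb4, Stip1, Ahsa1, Cct3, Tcp1 and untested members were added after their values were seen. Other lists give members with unadjusted p under 0.05 or the lowest p, with the other tested mitochondrial folding genes added. The tests were checked on simulated counts. Alternatives were DESeq2 1.42.0, limma-voom (limma 3.58.1), RLE and upper quartile scaling, all uniquely aligned reads as library size, other filters, a replicate block, genes without opposite-strand exon, and libraries left out.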

Additional observations from a re-analysis of the deposited data

How the results depend on the processing

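Under all 16 alternatives 0 chaperone members were called. The count of called genes was 0 in the main test and 6 with no filter, none of them a member, 1 (Erdr1) without both replicates numbered 3, and 0 to 1 leaving out each library, the 1 without WT replicate 3 being Erdr1; the cause was not tested. The median over members stayed below 0, from -0.313 (without KO replicate 2) to -0.0555 (without KO replicate 3) leaving out each library; -0.281 without KO replicate 1 and -0.313 without KO replicate 2 moved by more than the 0.1 SD between library medians. Scaling to all uniquely aligned reads put 18 of 22 members below 0, where 59.2% of all genes were. Of 22 members 13 kept their sign in every alternative in which they were tested. The other 9 turned, with main values from -0.18 (Chordc1) to 0.14 (Hsp90aa1). Leaving out each library, Hsph1 ranged from -0.32 to 0.25, Hspe1 from -0.383 to 0.175, Hspa4 from -0.313 to 0.141, Hsp90aa1 from -0.0324 to 0.244, Hsp90ab1 from -0.224 to 0.0197, Chordc1 from -0.425 to 0.0206, Ahsa1 from -0.776 to 0.331, Cct7 from -0.112 to 0.194 and Cct8 from -0.281 to 0.129. Hsph1 was 0.0044 with DESeq2, 0.00779 with no filter and 0.0592 among genes without opposite-strand exon, where Hsp90ab1 was 0.0134. With all uniquely aligned reads Ahsa1 was -0.0472, Cct7 -0.0112 and Cct8 -0.0337, and with limma-voom Ahsa1 was -0.222 and Cct8 -0.02. Without both replicates numbered 3 Hsph1 was 0.224, Hspe1 0.385 and Chordc1 0.00817. The replicate block called 0 genes, gave a median of -0.132 and put Ahsa1 at -0.0634 and Cct8 at -0.0194; same-numbered libraries correlated at 0.143, 0.0795 and 0.122, and the labels name no pairing. Leaving out each library, Hspa12a lay between -1.31 and -0.868, Hspa9 between -0.616 and -0.347 and Fkbp4 between -0.463 and -0.36. The SE of a member's log2 fold change had a median of 0.285 (0.121 to 0.484), which limits the differences that this depth can show.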
